A study of Mus musculus with 6 samples.

Results

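The genes described here are those of the unfolded protein response and the integrated stress response, chosen by gene symbol from a list of 36 named genes. All 36 were found in a table of 54532 genes. The symbol Ddit3 stood for 2 gene identifiers, of which the second (105 bases long) had 0 reads in all 6 libraries, which allows up to 0.173 to 0.192 CPM. The genes were read in Kupffer cells, macrophages that live in the liver sinusoids, sorted from male Trem2-deficient mice (Trem2_KO, 3 libraries) and wild-type littermates (WT, 3 libraries). Mice of either genotype were 8 weeks old when a high fat diet began and were on it for 8 weeks, so a comparison with another diet was not analysed here. TREM2 is a surface receptor of macrophages that binds lipids. The labels name neither the deleted part of the gene nor the number of mice behind a library, so the p-values measure the spread between these libraries, which may be technical.

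The endoplasmic reticulum folds secreted and membrane proteins, and its sensors answer an excess of unfolded protein. ATF6, which is cleaved, and IRE1 (gene Ern1), which splices Xbp1 mRNA, act through transcription factors that raise chaperones, folding enzymes and the machinery that degrades misfolded proteins. PERK (gene Eif2ak3) phosphorylates the initiation factor eIF2alpha, as does a kinase that senses amino acid shortage. This phosphorylation slows translation in general but raises that of ATF4. ATF4 is a factor for genes of amino acid supply, tRNA charging, phosphatase feedback and cell death. The list was divided into an ATF6/XBP1 arm of 21 genes and an ATF4 arm of 15, with Eif2ak3 in the ATF4 arm.

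Total counts ran from 16347967 to 17135603 in Trem2_KO and from 15799351 to 15893041 in WT. Trem2, the targeted gene, was read at 16.6, 17.3 and 14.5 CPM in Trem2_KO and 84.7, 90 and 84.2 CPM in WT, in the direction of the labels in every library. CPM values are counts per 1000000 reads after scaling with edgeR's TMM factors. A gene counted as called where edgeR's quasi-likelihood test, adjusted by Benjamini-Hochberg over the 13776 genes that passed a filter on low counts, gave p under 0.05. Of these genes 15.3% were called higher in Trem2_KO and 15.1% lower, 30.3% in all. Scaled by total counts alone, the fit called 2515 higher and 1592 lower, against 2103 and 2078. Among marker lists in the same libraries, Clec4f, a Kupffer cell lectin, averaged 11181 ± 158 CPM in Trem2_KO and 12312 ± 333 CPM in WT (SD, n = 3 per group), and all 10 Kupffer cell markers summed to 38724 to 39299 CPM in Trem2_KO and 42866 to 44234 CPM in WT (8 of 10 called lower, Csf1r and Adgre1 not called), hepatocyte markers to 1469 to 1503 CPM in Trem2_KO and 1662 to 1729 CPM in WT (8 of 14 called lower, 3 higher) and sinusoidal endothelial markers to 655 to 663 CPM in Trem2_KO and 563 to 569.5 CPM in WT (10 of 10 called higher). In such bulk libraries fewer cells of a type and less RNA per cell cannot be told apart.

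The arms differed in the direction of their called genes. Of the 33 tested members 17 were called (background 30.3%), and the Trem2_KO libraries lay all above the WT libraries for 7 and all below for 13 (background 41.6% in either direction). In the ATF6/XBP1 arm all 21 genes passed the filter, 13 were called lower and 1, Atf6 itself, was called higher in Trem2_KO, against 15.1% and 15.3% of all tested genes. In the ATF4 arm 12 of 15 genes passed the filter, 3 were called higher (background 15.3%) and 0 lower (background 15.1%). For so few genes these counts are near those shares. In that arm DESeq2 likewise called 0 genes lower, as did the other settings run, and 0 genes were lower at an unadjusted p under 0.05. The median log2 change was -0.14 in the ATF6/XBP1 arm and 0.10 in the ATF4 arm, beside -0.005 over all tested genes. Per library, the median deviation of the ATF6/XBP1 arm from the WT mean of each gene was -0.166, -0.147 and -0.156 on the log2 scale in Trem2_KO and 0.010, 0.003 and -0.007 in WT. For the ATF4 arm the same quantity was 0.095, 0.099 and 0.094 in Trem2_KO and 0.021, 0.014 and -0.038 in WT. The Trem2_KO libraries lay below all WT libraries in the first arm and above all of them in the second. These medians are descriptions with no test, and that of the ATF4 arm was 0.059 without WT replicate 3.

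**Figure D1:**
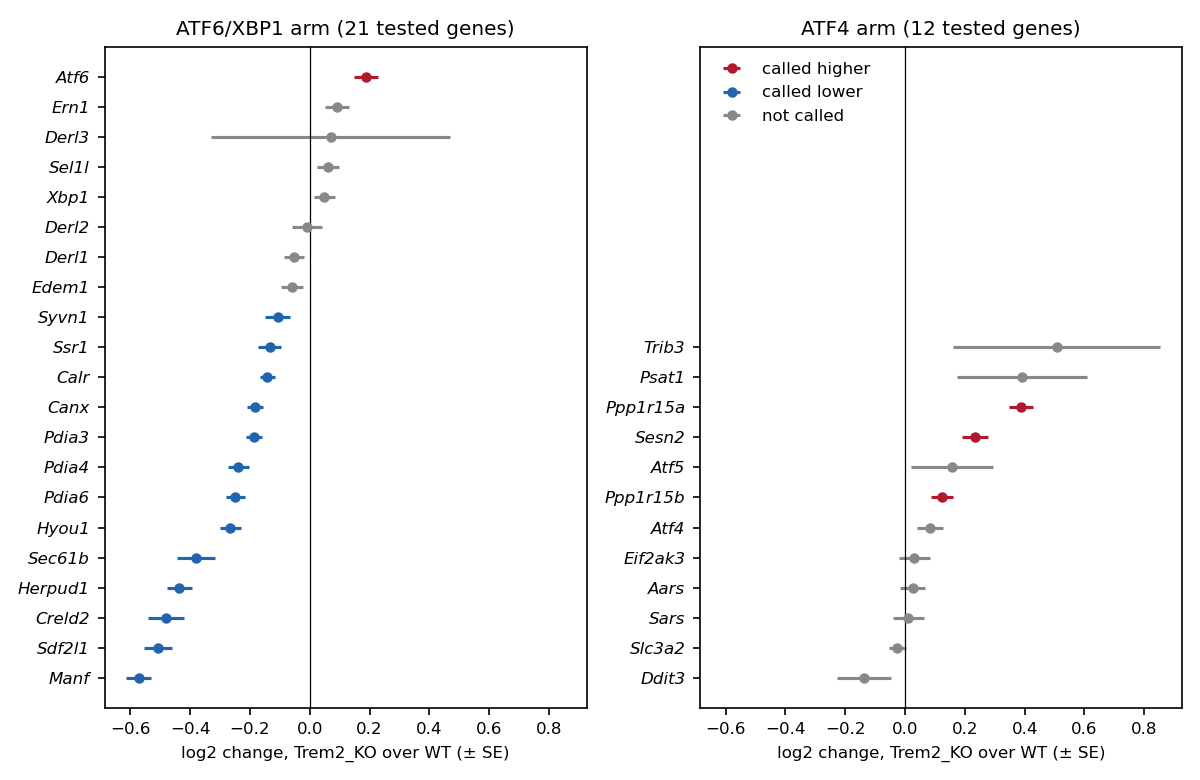
Fitted log2 change (Trem2_KO over WT, points) and its standard error (bars) for the 33 tested genes, 21 of the ATF6/XBP1 arm on the left and 12 of the ATF4 arm on the right, coloured by edgeR call. The ATF6/XBP1 arm runs from Manf at -0.57 to Atf6 at 0.19, and the 3 called genes of the ATF4 arm lie above 0.

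**Figure D2:**
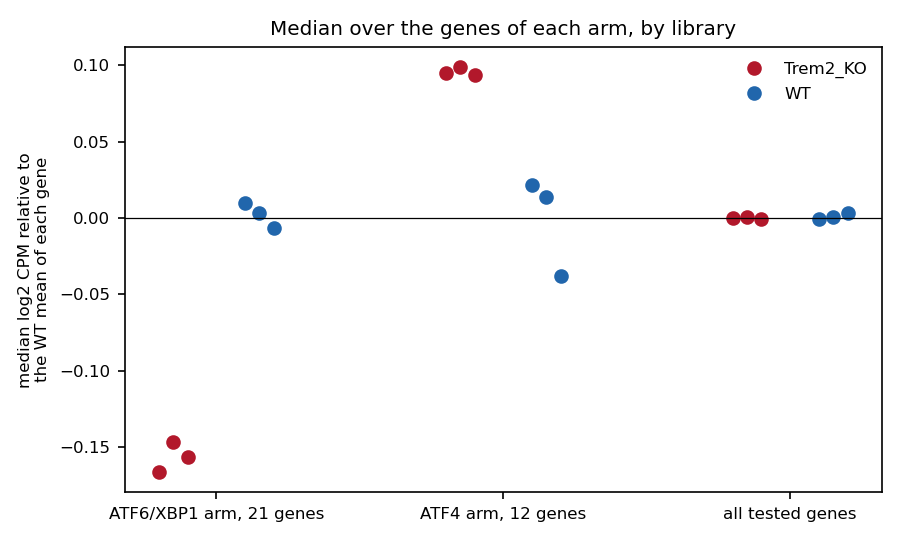
Median over genes of the log2 CPM relative to the WT mean of each gene, 1 point per library (Trem2_KO left, WT right), for each arm and for all tested genes. In Trem2_KO the ATF6/XBP1 arm lies near -0.156 and the ATF4 arm near 0.095, while the median of all tested genes lies at most 0.00323 from 0 in any library.

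Chaperones and folding enzymes of the endoplasmic reticulum fell as a group, and they fell in every member. All 9 listed genes of this kind were called lower in Trem2_KO (background 15.1%), and for all 9 the 3 Trem2_KO libraries lay below the 3 WT libraries (background 20.7%). Their summed level was 3348, 3382 and 3319 CPM in Trem2_KO and 3893, 3941 and 3799.7 CPM in WT, a difference of -13.6%. The size of the change was not the same for all of them.

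The 3 largest falls were those of small luminal proteins that are known to be strongly induced when the unfolded protein response is on. Manf (ENSMUSG00000032575, chromosome 9, 106838312 to 106891979, GRCm38), a secreted trophic factor that also sits in the endoplasmic reticulum, was at 105, 106 and 96.1 CPM in Trem2_KO and 154, 156 and 148 CPM in WT. The groups lay apart, and Manf fell by 32.7% (log2 change -0.57, SE 0.0411, adjusted p = 6.63e-17). Manf shares 146 exon bases with Dcaf1 on the opposite strand, and without a stated strand setting the reads there cannot be told apart. Sdf2l1 (ENSMUSG00000022769, chromosome 16, 17130138 to 17132383), a partner of the BiP chaperone cycle, was at 87.6, 84.8 and 76.6 CPM in Trem2_KO and 119.6, 123 and 111 CPM in WT. It fell by 29.6% (log2 change -0.51, SE 0.0468, adjusted p = 1.84e-12), and Trem2_KO replicate 3 was the lowest library, as for Manf. Creld2 (ENSMUSG00000023272, chromosome 15, 88819646 to 88826683), a protein with disulfide isomerase activity, was at 45.3, 36.5 and 40.7 CPM in Trem2_KO and 56.6, 58.7 and 55.9 CPM in WT. It fell by 28.3% (log2 change -0.48, SE 0.0611, adjusted p = 1.01e-08), with a spread between Trem2_KO libraries (SD 4.42 CPM) wider than between WT libraries (SD 1.47 CPM).

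The disulfide isomerases fell by less. Pdia6 was at 319, 307 and 299 CPM in Trem2_KO and 374, 375 and 350.1 CPM in WT, and fell by 15.9% (log2 change -0.25, SE 0.0318, adjusted p = 7.49e-09). Pdia4 was at 174, 171 and 161 CPM in Trem2_KO and 196, 199 and 201 CPM in WT, and fell by 15.3% (log2 change -0.24, SE 0.0356, adjusted p = 3.13e-07). Pdia3, which acts on glycoproteins handed over by the lectins calreticulin and calnexin, was at 787, 792 and 794 CPM in Trem2_KO and 906, 925 and 870.0 CPM in WT. Its Trem2_KO libraries lay close together and below all WT libraries, and it fell by 12.2% (log2 change -0.19, SE 0.0263, adjusted p = 8.49e-08). Hyou1, the large chaperone that works as a nucleotide exchange factor for BiP, was at 201, 191 and 184 CPM in Trem2_KO and 229, 225 and 237 CPM in WT. It fell by 16.8% (log2 change -0.27, SE 0.0351, adjusted p = 1.78e-08).

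The calcium-binding lectins fell least among the 9. Calr, which encodes calreticulin, was at 1047, 1094 and 1054 CPM in Trem2_KO and 1168, 1186 and 1169.6 CPM in WT, and Canx, which encodes the membrane-bound calnexin, at 583, 599 and 614 CPM in Trem2_KO and 689, 693 and 657 CPM in WT. The groups did not overlap for either gene. Calr fell by 9.34% (log2 change -0.14, SE 0.0251, adjusted p = 1.03e-05) and Canx by 11.9% (log2 change -0.18, SE 0.0278, adjusted p = 4.61e-07). Per length, in the deposited FPKM, Calr averaged 368 FPKM in Trem2_KO and 407 FPKM in WT and stood in place 1 among the 33 tested genes, with Pdia3 in place 2 at 251 FPKM in Trem2_KO and 286 FPKM in WT. Sdf2l1, at 74.5 FPKM in Trem2_KO and 106 FPKM in WT, stood in place 6 in Trem2_KO and in place 5 in WT. Manf, at 29 FPKM in Trem2_KO and 43.2 FPKM in WT, stood in place 15 in Trem2_KO and in place 11 in WT.

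**Figure D3:**
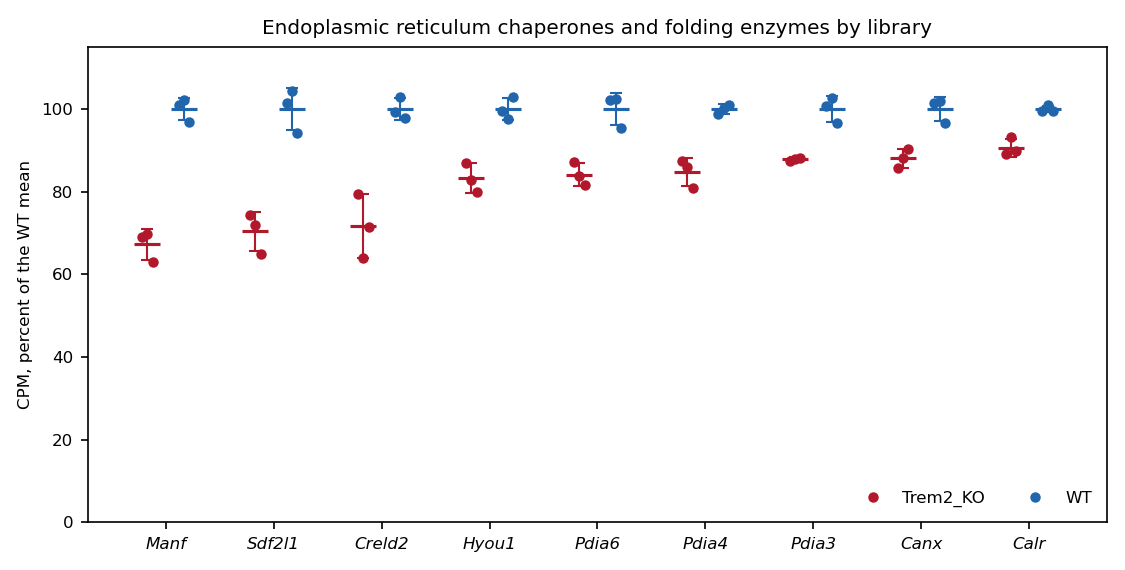
CPM of the 9 chaperones and folding enzymes in each library as a percent of the WT mean of that gene, with the mean (line) and SD (bar, n = 3 per group), Trem2_KO left of WT. The genes are ordered by log2 change, from Manf at -0.57 to Calr at -0.14, and no Trem2_KO point reaches a WT point of the same gene.

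Both listed genes of protein import into the endoplasmic reticulum were called lower (background 15.1%), without overlap between the groups (background 20.7%). Sec61b, a small subunit of the translocation channel, was at 37.6, 35.6 and 31.2 CPM in Trem2_KO and 45.3, 44.9 and 45.8 CPM in WT. It fell by 23.2% (log2 change -0.38, SE 0.0637, adjusted p = 3.54e-06). Ssr1, a subunit of the translocon-associated protein complex, was at 136, 138 and 132 CPM in Trem2_KO and 149.99, 148 and 148 CPM in WT, and fell by 8.91% (log2 change -0.13, SE 0.0375, adjusted p = 0.00419). Of other genes of this machinery, named after their values were seen, Sec61a1 (-0.10), Sec62 (-0.11) and Srpr (-0.12) were called lower. So were Ssr2 (-0.25), Ssr3 (-0.16) and Ssr4 (-0.20), of the same complex as Ssr1. Sec61g (-0.20), Sec63 (-0.06) and Srprb (-0.09) were not called, all these values being log2 changes.

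Among genes for the degradation of misfolded proteins, Herpud1 and Syvn1 were lower. Of 7 genes, 2 were called lower and 0 higher, a share near that over all tested genes (15.1% lower, 30.3% in either direction), with 0 of the 7 higher in DESeq2 or at an unadjusted p under 0.05. Herpud1 (ENSMUSG00000031770, chromosome 8, 94386438 to 94395377), a membrane protein of the degradation complex and a classical target of the response, was at 90.1, 90.4 and 93.4 CPM in Trem2_KO and 127, 122 and 121 CPM in WT. It fell by 26.1% (log2 change -0.44, SE 0.0415, adjusted p = 1.38e-12). Syvn1, the ubiquitin ligase HRD1 at the core of the same complex, was at 97.3, 94.1 and 98.8 CPM in Trem2_KO and 103, 106 and 104 CPM in WT. It fell by 7.17% (log2 change -0.11, SE 0.0423, adjusted p = 0.0473), which passed the threshold narrowly, and it was past it in 5 of 17 other settings, DESeq2 not among them.

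The other degradation genes were not called. Sel1l, the partner of HRD1, averaged 177 ± 4.83 CPM in Trem2_KO and 170.0 ± 4.2 CPM in WT (SD, n = 3 per group). Edem1, a lectin that delivers misfolded glycoproteins, averaged 248 ± 11.8 CPM in Trem2_KO and 258 ± 12.4 CPM in WT (SD, n = 3 per group). Derl1 and Derl2, derlins of the export channel, had log2 changes of -0.05 (SE 0.0338) and -0.01 (SE 0.0512). Derl3, the derlin best known from secretory cells, had 15, 15 and 12 reads in Trem2_KO and 12, 11 and 14 reads in WT, with an SE of 0.4 on the log2 scale, so that a change of the sizes above was not detectable at this depth. For all 5 the groups overlapped. Sel1l was called higher with total-count scaling (log2 change 0.09, adjusted p = 0.0477, against 0.0477 to 1 over all settings). Edem1 was called lower in the fit that left out WT replicate 2 (adjusted p = 0.0416) and in those without the length trend (adjusted p = 0.0309, and 0.0353 with the block), within a range up to 1. Derl2 shares 231 exon bases with Mis12 on the opposite strand.

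Promoters of the members were searched for the elements through which the arms are known to act. RefSeq windows of 300 bases (250 before to 50 after the annotated start, GRCm38.p6) were at hand for 17 genes of the ATF6/XBP1 arm and 14 of the ATF4 arm. Atf6, Manf, Hyou1, Derl1 and Ppp1r15b are given by name only. The ER stress response element (ERSE, CCAAT and CCACG with 9 bases of any kind between them, either strand), which ATF6 and XBP1 bind together with NF-Y, was found in 6 of the 17 and in 0 of the 14, against 0.137% of the 26994 genes with a window (0.119% of 32817 windows). The shorter ERSE-II (ATTGG and CCACG with 1 base between them, either strand) was found in 1 of the 17 and 0 of the 14, against 0.0445% of genes (0.0366% of windows). UPRE (TGACGTGG, either strand), an element bound by XBP1, was found in 0 of either arm, against 0.715% of genes (0.676% of windows). CARE (TGATGNAA, either strand), the element bound by ATF4 with C/EBP partners, was found in 1 of the 17 and 4 of the 14, against 4.51% of genes (3.97% of windows). A match is a description of the letters, and no match says only that these letters are not in this window.

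The sites are shown because they mark the members that share an element. Each is written on the strand that matches, with the fixed letters of the motif in capitals, and positions count from 0 at the annotated start.
Creld2 ERSE (-126 to -108): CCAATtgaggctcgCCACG
Pdia6 ERSE (-98 to -80): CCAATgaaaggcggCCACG
Canx ERSE (-145 to -127): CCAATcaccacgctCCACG
Calr ERSE (-162 to -144): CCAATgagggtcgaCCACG
Syvn1 ERSE (-44 to -26): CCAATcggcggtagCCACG
Derl3 ERSE (-156 to -138): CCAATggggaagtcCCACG
Herpud1 ERSE-II (-52 to -42): ATTGGgCCACG
Of these 7 genes, 6 were called lower, all but Derl3 (background 15.1%), and the call of Syvn1 was narrow, as given above. Of the other 10 genes of the arm with a window, 5 were called lower (background 15.1%), among them Sdf2l1 and Pdia3. The difference between these 2 counts was not tested. Over all genes with a window and a test, 26 had an ERSE or ERSE-II, of which 16 were called lower and 4 higher. Without the members, 10 of 19 were called lower and 4 higher, with a median log2 change of -0.12, beside 1592 lower and 1571 higher of 9890 tested genes with a window and a median of -0.01. Only the members were taken out, so other genes of endoplasmic reticulum folding and export, described below, can be among the 19. This count is a description, made after the members' values were known.

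The windows of Herpud1 and Creld2 are printed whole, since these genes fell most among those with an element. Both are written 5′ to 3′ on the strand of the gene, with every motif match in capitals.
Herpud1 (chr8:94386179-94386478, plus strand): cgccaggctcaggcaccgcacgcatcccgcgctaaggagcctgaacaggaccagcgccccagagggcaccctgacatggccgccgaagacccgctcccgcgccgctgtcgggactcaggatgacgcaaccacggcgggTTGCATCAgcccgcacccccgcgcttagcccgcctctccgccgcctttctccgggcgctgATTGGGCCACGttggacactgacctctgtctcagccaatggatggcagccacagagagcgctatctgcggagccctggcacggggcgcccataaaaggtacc
Creld2 (chr15:88819396-88819695, plus strand): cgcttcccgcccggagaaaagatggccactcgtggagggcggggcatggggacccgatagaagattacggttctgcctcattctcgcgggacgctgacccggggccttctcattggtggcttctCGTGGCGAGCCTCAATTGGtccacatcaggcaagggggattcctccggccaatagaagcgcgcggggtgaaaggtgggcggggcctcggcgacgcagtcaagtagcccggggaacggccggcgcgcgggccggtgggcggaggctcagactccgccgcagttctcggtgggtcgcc
In Herpud1 the first run of capitals is a CARE on the opposite strand (-112 to -105) and the second the ERSE-II. In Creld2 the ERSE lies on the opposite strand. No 2 matches overlapped in any member.

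**Figure D4:**
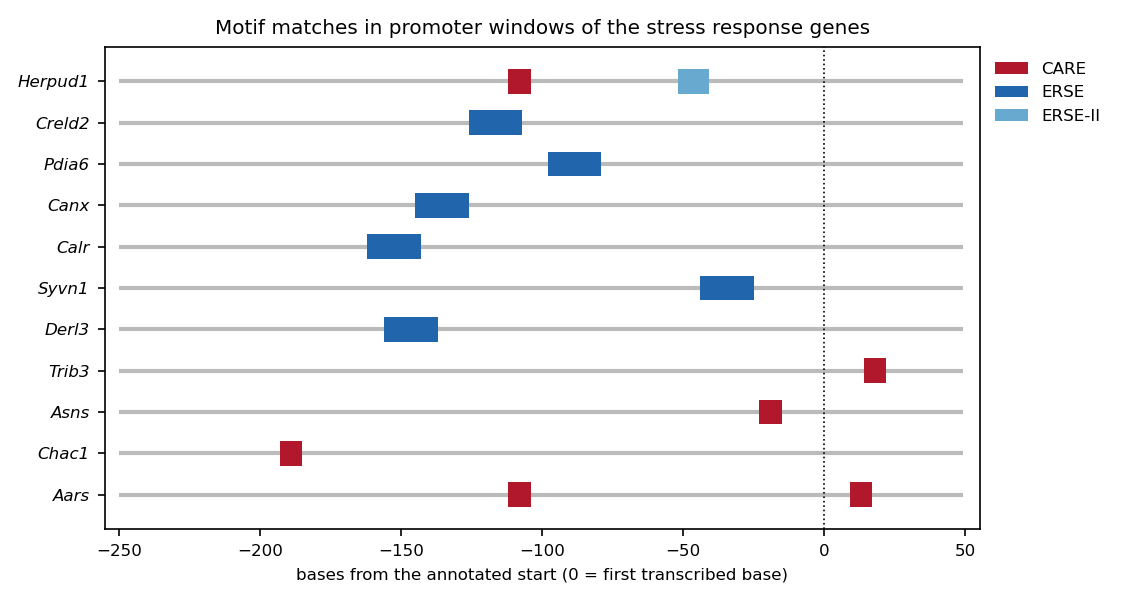
Positions of motif matches (coloured blocks, to scale) in the 300-base promoter windows (grey lines) of the 11 members with an ERSE, ERSE-II or CARE match, in bases from the annotated start. ERSE and ERSE-II lie upstream of the start in 7 genes of the ATF6/XBP1 arm, between -162 and -26, and CARE lies in Herpud1 and in 4 genes of the ATF4 arm.

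Among the sensors and transcription factors themselves, Atf6 was higher. Of 7, 1 was called higher (background 15.3%) and 0 lower (background 15.1%), counts near those shares, with the same counts in DESeq2 and with 2 higher and 0 lower at an unadjusted p under 0.05. Atf6, the membrane-bound factor that is cleaved under stress, was at 127, 132 and 131 CPM in Trem2_KO and 114, 111 and 118 CPM in WT. It rose by 14% (log2 change 0.19, SE 0.0399, adjusted p = 1.66e-04) with no overlap between the groups. Ern1, the IRE1 kinase and nuclease, was at 127, 125 and 125 CPM in Trem2_KO and 119, 112 and 123 CPM in WT. All 3 Trem2_KO libraries lay above the WT libraries, but the difference was not called (log2 change 0.09, SE 0.0403, adjusted p = 0.0762). Total-count scaling called it (adjusted p = 0.0174), and so did the fit that left out WT replicate 3 (adjusted p = 0.0332), within a range of adjusted p from 0.0174 to 1 over all settings.

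Xbp1, whose mRNA IRE1 splices, was at 216, 231 and 237 CPM in Trem2_KO and 223, 223 and 214 CPM in WT. The groups overlapped and the difference was not called (log2 change 0.05, SE 0.0347, adjusted p = 0.311). Counts per gene add spliced and unspliced Xbp1, so splicing was not measured, nor was the cleavage of ATF6 or the translation of ATF4. Eif2ak3, the PERK kinase, was at 65.6, 67 and 61.6 CPM in Trem2_KO and 64.5, 61.1 and 64.5 CPM in WT, with overlapping groups (log2 change 0.03, SE 0.0514, adjusted p = 0.7).

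Atf4, the factor of the second arm, was at 96.2, 109 and 101 CPM in Trem2_KO and 97.8, 95 and 95.9 CPM in WT. Trem2_KO replicates 2 and 3 lay above the WT libraries and replicate 1 among them (log2 change 0.08, SE 0.0448, adjusted p = 0.161). Total-count scaling called it higher (adjusted p = 0.0497), and so did a fit from which the trend with gene length was taken out (log2 change 0.15, adjusted p = 0.0062), with adjusted p between 0.0062 and 1 over all settings. Atf5, a related factor translated under the same control, was at 8.6, 7.39 and 8.46 CPM in Trem2_KO and 8.55, 7.41 and 6 CPM in WT, with overlapping groups (log2 change 0.16, SE 0.138, adjusted p = 0.429). Ddit3, which encodes the pro-apoptotic factor CHOP, was at 16.5, 16.7 and 20.3 CPM in Trem2_KO and 20.6, 19.7 and 18.6 CPM in WT. In this arm only Ddit3 and Slc3a2 had negative log2 changes, and Ddit3 was not called (log2 change -0.14, SE 0.091, adjusted p = 0.266). Atf5 and Ddit3 share exon bases with Nup62 and Mars on the opposite strand (82 and 68 bases), and without a stated strand setting their reads cannot be told apart there.

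The called rises of the ATF4 arm were those of Ppp1r15a, Ppp1r15b and Sesn2, listed here as feedback and stress regulators. Ppp1r15a (ENSMUSG00000040435, chromosome 7, 45522916 to 45526268), which encodes GADD34, the inducible subunit that directs a phosphatase to eIF2alpha, was at 140.2, 140.5 and 137 CPM in Trem2_KO and 105, 109 and 105 CPM in WT. It rose by 30.8% (log2 change 0.39, SE 0.0395, adjusted p = 1.28e-11), with every Trem2_KO library above every WT library. Ppp1r15b, its constitutive counterpart, was at 154, 152 and 153 CPM in Trem2_KO and 142, 141 and 137 CPM in WT, a rise of 9.01% (log2 change 0.12, SE 0.0369, adjusted p = 0.00737). Sesn2, a stress sensor that restrains mTORC1, was at 103, 95.6 and 100.3 CPM in Trem2_KO and 86.5, 85.6 and 82 CPM in WT, a rise of 17.6% (log2 change 0.23, SE 0.0446, adjusted p = 3.71e-05). For all 3 the groups did not overlap, but they are named here because they were called, which favours separated groups. Of all 12 tested genes of the arm, 5 had the Trem2_KO libraries all above the WT libraries (background 20.9%). Ppp1r15a and Ppp1r15b share 12 and 640 exon bases with Tulp2 and Gm26616 on the opposite strand, which had few reads. Per length, Ppp1r15a averaged 47.1 FPKM in Trem2_KO and 36.1 FPKM in WT, Ppp1r15b 27.2 FPKM in Trem2_KO and 25 FPKM in WT and Sesn2 28.5 FPKM in Trem2_KO and 24.3 FPKM in WT. Trib3, a pseudokinase that is a target and inhibitor of the ATF4 pathway, had 33, 18 and 20 reads in Trem2_KO and 15, 14 and 17 reads in WT. Its libraries did not overlap between groups, but the change was not called (log2 change 0.51, SE 0.346, adjusted p = 0.286). Chac1, a glutathione-degrading enzyme induced by ATF4, had 4, 8 and 2 reads in Trem2_KO and 0, 2 and 2 reads in WT and was under the filter.

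**Figure D5:**
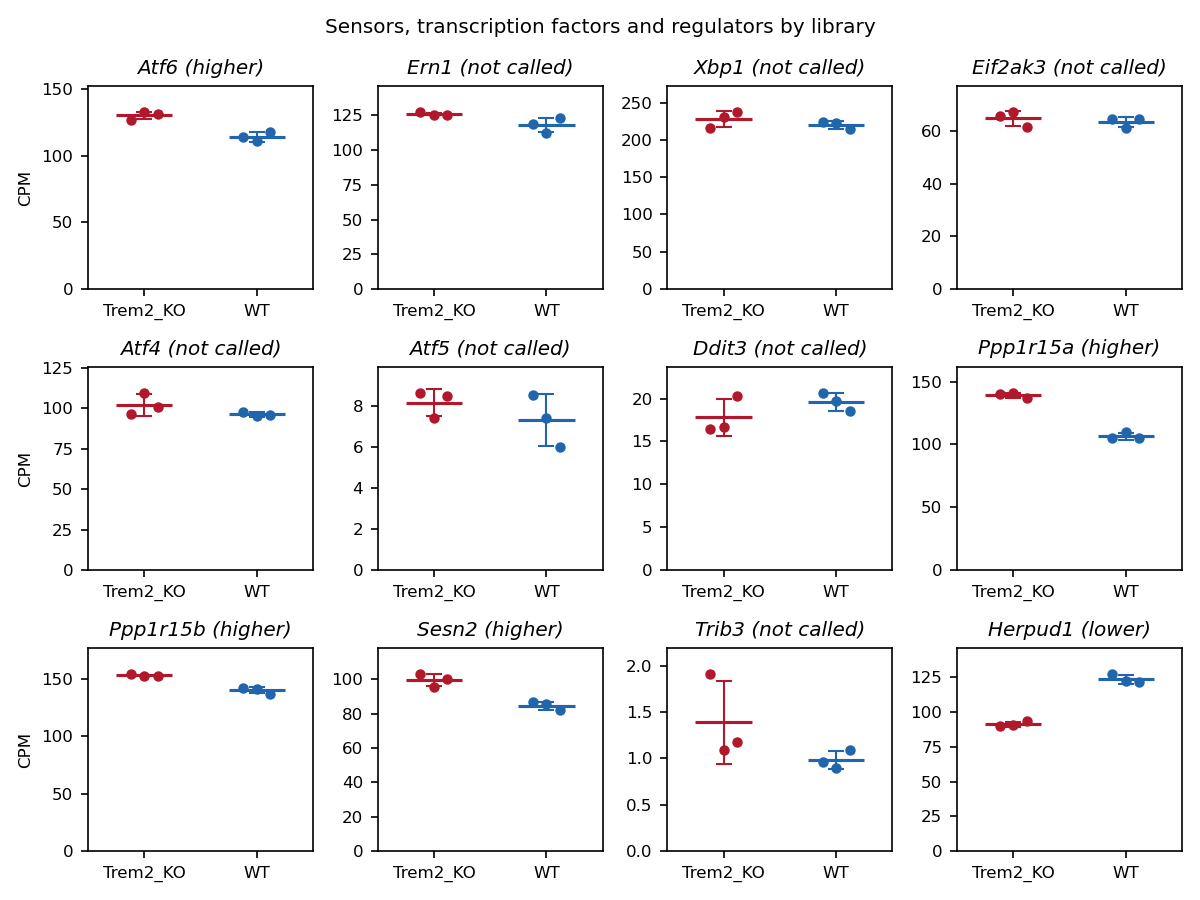
TMM-scaled CPM by library (points), with mean (line) and SD (bar, n = 3 per group), Trem2_KO left of WT. The genes are the sensors, transcription factors, tested feedback and stress regulators, and Herpud1. Each axis starts at 0. Atf6, Ppp1r15a, Ppp1r15b and Sesn2 were called higher and Herpud1 lower.

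Genes of amino acid supply and tRNA charging make up the rest of the ATF4 arm. Of 4 tested, 0 were called, which with so few genes is near the 30.3% of all tested genes called in either direction. The count was 0 in edgeR, in DESeq2 or at an unadjusted p under 0.05. Slc3a2, the heavy chain of amino acid exchangers and the most abundant gene of the arm per length (142 FPKM in Trem2_KO and 145 FPKM in WT), was at 503, 510.2 and 499.8 CPM in Trem2_KO and 518, 523 and 500.4 CPM in WT (log2 change -0.03, SE 0.0279, adjusted p = 0.529). Sars and Aars, the seryl- and alanyl-tRNA synthetases, had log2 changes of 0.01 (SE 0.0517) and 0.03 (SE 0.0425). Aars shares 1326 exon bases with Exosc6 on the same strand, which had 0 reads. The handling of reads that fall in both genes is not given. Psat1, an enzyme of serine synthesis, had 59, 48 and 55 reads in Trem2_KO and 40, 38 and 36 reads in WT, with no overlap but no call (log2 change 0.39, SE 0.218, adjusted p = 0.178). Asns, asparagine synthetase and a classical ATF4 target, had 8, 3 and 7 reads in Trem2_KO and 1, 0 and 2 reads in WT and did not pass the filter. Phgdh, the first enzyme of serine synthesis, had 3, 0 and 2 reads in Trem2_KO and 3, 3 and 3 reads in WT and did not pass the filter either. For Asns every Trem2_KO library held more reads than every WT library, at counts too low for a test. The CARE sites of this arm are shown because they lie in genes with few reads or no call, with their fixed letters in capitals.
Asns CARE (-23 to -16): TGATGaAA
Chac1 CARE (-193 to -186): TGATGcAA
Trib3 CARE (14 to 21): TGATGtAA
Aars CARE (-112 to -105): TGATGcAA
Aars CARE, second site (9 to 16): TGATGaAA
Over all tested genes with a window, 47 of 280 with a CARE were called higher and 40 lower, with a median log2 change of -0.02. Of all 9890 tested genes with a window, 1571 were called higher and 1592 lower, with a median of -0.01, so the CARE counts are near that background.

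Other genes of the same pathways were read from lists that do not hold the members. Of 37 tested other genes of folding and export in the endoplasmic reticulum, 25 were called lower (background 15.1%) and 0 higher (background 15.3%), with a median log2 change of -0.16. DESeq2 called 19 of them lower and 0 higher, and 0 were higher at an unadjusted p under 0.05. Hspa5, the BiP chaperone at the centre of the response, was at 1158, 1147 and 1147 CPM in Trem2_KO and 1429, 1450.4 and 1430.5 CPM in WT. It fell (log2 change -0.32, SE 0.0241, adjusted p = 4.05e-16), as did Hsp90b1 (log2 change -0.26, SE 0.0262, adjusted p = 1.26e-11), the cargo receptor Tmed2 (log2 change -0.28, SE 0.036, adjusted p = 6.02e-09) and the co-chaperone Dnajc3 (log2 change -0.20, SE 0.0333, adjusted p = 2.09e-06). Of 13 tested other degradation genes, 3 were called lower and 1 higher, near the 15.1% and 15.3% of all tested genes. Ube2g2, a ubiquitin-conjugating enzyme of this pathway, was at 75.1 ± 4.81 CPM in Trem2_KO and 90.4 ± 5.95 CPM in WT (SD, n = 3 per group), with log2 changes of -0.27 for Ube2g2, -0.17 for Selenos, -0.13 for Ubxn4 and 0.12 for Ube2j1. DESeq2 called 2 of these 13 lower and 0 higher.

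Of 15 tested other sensors and regulators, 3 were called higher and 3 lower (1 and 2 in DESeq2), near the 15.3% and 15.1% of all tested genes. Creb3l2, a membrane-bound factor related to ATF6, was at 99.8, 98 and 98.6 CPM in Trem2_KO and 76.2, 76.6 and 78.3 CPM in WT and rose (log2 change 0.36, SE 0.0444, adjusted p = 3.2e-09). Nfe2l2, which encodes NRF2, had a log2 change of -0.15 and Eif2s1, the eIF2alpha subunit itself, of -0.15, and Dnajc3, an inhibitor of PERK, stood on this list too. Of 24 tested other ATF4 targets, 9 were called higher (background 15.3%) and 2 lower (background 15.1%), or 6 and 1 in DESeq2, with a median log2 change of 0.07. Ddit4, an inhibitor of mTORC1 that glucocorticoids and low oxygen also induce, was at 275, 264 and 238 CPM in Trem2_KO and 42.5, 41.2 and 43.7 CPM in WT (log2 change 2.61, SE 0.0478, adjusted p = 3.28e-33). Gdf15, a stress-induced hormone, was at 33.1, 35 and 38.8 CPM in Trem2_KO and 17.3, 17.2 and 14.4 CPM in WT (log2 change 1.13, SE 0.0805, adjusted p = 5.39e-17). Atf3 rose to 90.2 ± 3.96 CPM in Trem2_KO, against 52.1 ± 1.7 CPM in WT (SD, n = 3 per group, log2 change 0.79). Jdp2, a relative of ATF3, rose by 0.46 on the log2 scale. Genes of amino acid transport or metabolism were also called higher, with log2 changes of 0.68 for Gpt2, 0.43 for Slc1a5, 0.41 for Slc7a1 and 0.40 for Slc38a2. Others of that kind, among them Slc7a5, Slc1a4, Shmt2, Psph and Cbs, were not called. The 2 targets called lower were Mthfd1l (log2 change -0.59) and Lmo4 (-0.29). Of 18 other cytosolic tRNA synthetases, 4 were called lower (background 15.1%) and 0 higher (background 15.3%), with log2 changes of -0.22 for Gars, -0.17 for Kars, -0.19 for Dars and -0.21 for Hars. DESeq2 called 3 of the synthetases lower and 0 higher, and 0 were higher at an unadjusted p under 0.05.

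Several measured quantities moved with these results. Hepatocyte and plasma cells carry much endoplasmic reticulum, and hepatocyte markers were lower on balance in the Trem2_KO libraries, as given above. Alb, the most abundant of them, averaged 779 ± 23.3 CPM in Trem2_KO and 805 ± 21.3 CPM in WT (SD, n = 3 per group). Its groups overlapped and it was not called. B and plasma cell markers summed to 36.4 to 41.1 CPM in Trem2_KO and 41.6 to 46.8 CPM in WT (13 markers, 9 tested, 1 called higher and 2 lower). The called genes of that list went in opposite directions. Sdc1, which plasma cells carry, averaged 6.99 ± 0.625 CPM in Trem2_KO and 2.72 ± 0.704 CPM in WT (SD, n = 3 per group, log2 change 1.36). Ighm, the heavy chain of IgM, averaged 8.3 ± 0.659 CPM in Trem2_KO and 14.7 ± 1.02 CPM in WT (SD, n = 3 per group, log2 change -0.82), and Cd79b had a log2 change of -0.32. Jchain, at 2.46 ± 0.299 CPM in Trem2_KO and 3 ± 0.737 CPM in WT (SD, n = 3 per group), was not called, and Mzb1, at 0.396 ± 0.158 CPM in Trem2_KO and 0.34 ± 0.0736 CPM in WT, was under the filter. Monocyte markers summed to 116 to 119 CPM in Trem2_KO and 103 to 104 CPM in WT, with 4 of 8 called higher and 1 lower and a median log2 change of 0.47. Most of that sum was Plac8, which was lower, at 68.7 ± 1.42 CPM in Trem2_KO and 79.9 ± 0.71 CPM in WT (SD, n = 3 per group). Ccr2, at 17 ± 0.43 CPM in Trem2_KO and 6.21 ± 0.531 CPM in WT (SD, n = 3 per group), and Cx3cr1, at 15.1 ± 1.19 CPM in Trem2_KO and 5.51 ± 0.575 CPM in WT (SD, n = 3 per group), were higher, with log2 changes of 1.45 and 1.46, as were Ace (0.58) and Chil3 (1.81). The part of these cells in the changes was not tested. The median log2 change of tested genes was -0.09 in the shortest of 4 classes of equal gene number (median length 1464 bases) and 0.08 in the longest (median 8567 bases), while the median length of tested members was 3524 bases in the ATF6/XBP1 arm and 3502 in the ATF4 arm. After removal of this trend all 17 called members were still called, all 9 chaperones among them, and Xbp1 (log2 change 0.09), Atf4 and Edem1 (-0.09) were called too. Some log2 changes of called members shrank in that fit, as for Atf6 (0.19 to 0.12), Calr (-0.14 to -0.09) and Herpud1 (-0.44 to -0.37). That of Canx grew from -0.18 to -0.19, and the median of the 9 chaperones went from -0.25 to -0.22. In the ATF6/XBP1 arm the shortest genes, Sdf2l1 (1108 bases) and Sec61b (1271), had log2 changes of -0.51 and -0.38. The longest, Ssr1 (10431) and Atf6 (9231), had -0.13 and 0.19. No member lies on chromosome 17, where Trem2 is.

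The calls rest on the small spread between these libraries. The common coefficient of variation between them beyond counting error, which edgeR names biological, was estimated at 0.0378, and this spread may be technical. When every gene was instead given 0.2, 0 of the 17 called members passed the threshold (adjusted p = 0.289 to 1, edgeR likelihood ratio test), beside 2.69% of all tested genes, and all 17 kept their sign. Apart from that setting, 16 of the 17, all but Syvn1, were called in all 17 other settings. There the share of all tested genes called was 30.3% with DESeq2's size factors, 29.8% with total counts, 15.8% with no filter, 32.2% with a filter of 1 CPM in 3 libraries, 19.4% in DESeq2 and 29.9% in limma-voom. It was 23.0% and 22.8% in limma on FPKM with pseudocounts of 1 and 0.1, 30.7% with the replicate number as a block, 26.1% without the length trend and 25.9% with both. Without Trem2_KO replicates 1, 2 and 3 in turn it was 25.6%, 24.1% and 25.9%, and without WT replicates 1, 2 and 3 in turn 24.9%, 23.9% and 27.7%.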

How the data were processed

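RNA of sorted Kupffer cells was sequenced in 6 libraries made with an Illumina TruSeq kit, per the labels. The authors deposited raw read counts per gene and FPKM values (scaled by the authors to gene length and library size). GRCm38 and mm10 are named in the submitters' processing notes, with the tools HISAT2 (2.0.5), DESeq2 (1.16.1) and featureCounts (1.5.0-p3). For strand setting and multi-mapping reads, nothing is given in the sources used here.

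The deposited counts went into edgeR 4.0.16 under R 4.3.3 (filterByExpr, TMM, quasi-likelihood test with robust dispersion, genotype as the only term, Benjamini-Hochberg adjustment over 13776 genes). Tested genes held 99.9% of each library's counts. Each standard error was derived from the log2 change and its F statistic. A count of 3, the limit that a count of 0 allows, is 0.173 to 0.192 CPM, counting error only. FPKM served for levels between genes and, with pseudocounts of 1 and 0.1, for limma 3.58.1. Alternatives were DESeq2 1.42.0, limma-voom, other scalings and filters, a fixed coefficient of variation, gene length trend removal, a block for the replicate number, and fits without each library in turn. The fit was tested on simulated counts. Members, arms and lists were chosen with earlier results of these data known. All members are accounted for; values by library are given for sensors, factors and called members, and up to 4 called genes with the smallest p for each other list. Genes named beyond that rule were chosen after their values were seen. Coordinates of all 37 table rows equal those of GENCODE M21 (GRCm38). Promoter sequences are RefSeq's (GRCm38.p6).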

Additional observations from a re-analysis of the deposited data

How the results depend on the processing

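Neither arm's median changed sign in the 18 alternatives run. The count of ATF6/XBP1 arm genes called higher, 1 at first, was 3 with total counts and 2 with the gene length trend removed, also with the replicate block as well (2). With a coefficient of variation fixed at 0.2 the calls were 0 higher and 0 lower in that arm and 0 higher in the ATF4 arm, and 268 higher and 103 lower over all genes. DESeq2 called 1428 genes higher and 1385 lower. The ATF6/XBP1 median was -0.111 with total counts, -0.155 with no filter and -0.157 with a filter of 1 CPM in 3 libraries, and the ATF4 median was 0.134 with total counts. The ATF4 median minus the ATF6/XBP1 median, 0.245, was 0.266 with that filter and 0.265 with the length trend removed (0.264 with the replicate block). The causes were not tested. Leaving out 1 library gave 1 to 2 ATF6/XBP1 genes higher (2 without WT replicate 3) and 12 to 13 lower, an ATF6/XBP1 median of -0.161 to -0.134, an ATF4 median of 0.059 to 0.119 and a difference of 0.207 to 0.260. Same-numbered libraries showed no strong shared deviation (r = -0.00787, 0.00313 and 0.0361 across genes). Libraries of different number had r from -0.0264 to 0.0234. With so few libraries this check cannot exclude a pairing. The replicate block changed no member's call (ATF6/XBP1 arm 1 higher and 13 lower, ATF4 arm 3 higher). Depth limits Derl3, Trib3, Psat1, Asns, Chac1 and Phgdh.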
